A study of Mus musculus with 8 samples.

Results

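The genes described are subunits of the oxidative phosphorylation machinery of the mitochondrion, taken from a table of read counts for 35275 genes in 8 mouse tumours. A gene was included if the table gave it as protein coding, if its name began with Ndufa, Ndufb, Ndufc, Ndufs, Ndufv, Uqcr, Cox4 to Cox8 or Atp5, or was Sdha, Sdhb, Sdhc or Sdhd, or if it was a mitochondrially encoded Nd, Co, Cytb or Atp gene, and if it had at least 100 counts over the 8 tumours. Of 105 genes with such names, 102 met the count minimum. These were 90 nuclear genes and 12 genes of the mitochondrial genome. Of the nuclear genes, 81 encode subunits of the complexes, counting the Ndufa4 pair with complex IV. Subunits with other names, such as cytochrome c1 (Cyc1) of complex III, were not matched. The other 9, Ndufaf1 to Ndufaf7, Atp5s and Atp5sl, are matched by name only: the Ndufaf proteins assemble complex I and are not part of it. The members nearest the count minimum were mt-Nd3 and mt-Nd4l with 215 counts each, Cox6b2 with 218 and Cox4i2 with 301, and just outside it were mt-Atp8 with 4 counts and Cox8c and Cox7b2 with 0.

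Oxidative phosphorylation makes ATP in the inner mitochondrial membrane. Complex I (NADH dehydrogenase) and complex II (succinate dehydrogenase) pass electrons to ubiquinone, complex III hands them to cytochrome c, and complex IV (cytochrome c oxidase) gives them to oxygen. Complexes I, III and IV pump protons, and complex V, the ATP synthase, uses the returning protons. Complexes I, III, IV and V are built from subunits of both genomes, so their assembly draws on transcripts made in the nucleus and in the mitochondrion, whereas complex II is wholly nuclear. Muscle and brown fat are rich in these complexes, and complex IV has isoforms of several subunits whose use differs between tissues.

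All 8 tumours came from conditional Nf2 f/f and Cdkn2a f/f mice given Cre by an adenovirus in the peritoneum. Every group thus shared the floxed Nf2 and Cdkn2a genes, and these counts do not show their loss in each tumour. The cells that took up Cre, and the age, sex and strain of the mice, are not named in the labels. The study compared the transcriptomes of mesotheliomas of different genotypes. Peritoneal primary tumours 13, 14A, 59 and 61 were Pak2 f/f and labelled Pak2-/-, tumour 14B was a secondary tumour with the same label, and peritoneal primary tumours 19, 20 and 127 were Pak2 wild-type. Whether each tumour came from its own animal, and whether 14A and 14B share one, is not stated, so p-values measure only the spread between these samples, which may be technical. Libraries held 13469851 to 20402401 counts. Levels are given as CPM, counts scaled to a common library size, with TMM as a correction for library composition. The counts of Pak2 went against the labels: it had 186, 238, 165 and 131 CPM in tumours 13, 14A, 59 and 61 and 239.5 CPM in 14B, against 128, 90.1 and 92.7 CPM in wild-type tumours 19, 20 and 127. All tumours labelled Pak2-null were above all wild-type ones, at a log2 fold change of 0.82 ± 0.28 (SE; edgeR, Benjamini-Hochberg adjusted p = 0.267). A count per gene cannot tell if an exon between loxP sites is missing, and the groups below go by their labels. Nf2 lay at 74.6 to 142 CPM and Cdkn2a at 2.37 to 6.43 CPM over the 8 tumours. Transcripts of other tissues were present. The 22 skeletal muscle markers summed to 21.3, 45.4, 478 and 1010 CPM in tumours 13, 14A, 59 and 61 and 25.5 CPM in 14B, against 3450, 42000 and 31800 CPM in wild-type tumours 19, 20 and 127. The 7 exocrine pancreas markers summed to 187000 CPM in 14B and 25400 CPM in 14A, against at most 56.7 CPM elsewhere. Only 2 of these 7 were among the tested genes that set the library size, so these sums are not shares of all counts. The 10 adipocyte markers summed to 81.2, 407, 100 and 527 CPM in tumours 13, 14A, 59 and 61 and 233 CPM in 14B, against 1370, 1530 and 274 CPM in wild-type tumours 19, 20 and 127. All 10 were tested, and 3 were lower and 0 higher in the tumours labelled Pak2-null at an unadjusted p under 0.05. Of all tested genes, 8.55% were lower and 4.39% higher. None of the 10 was at 0 in any tumour, and their part in the subunit levels was not tested. The 13 mesothelial markers summed to 119 to 468 CPM in primary tumours labelled Pak2-null and 324 CPM in 14B, against 141 to 467 CPM in wild-type ones. Of these, Msln was at 1.12 to 132 CPM and Wt1 at 1.99 to 18.3 CPM over the 8 tumours. In bulk samples, fewer cells of a type and less RNA per cell cannot be told apart.

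No oxidative phosphorylation gene passed an adjusted p of 0.05 between the 4 primary tumours labelled Pak2-null and the 3 wild-type ones, while most had lower levels in the tumours labelled Pak2-null. All 102 passed the filter on low counts, and edgeR's quasi-likelihood F-test, Benjamini-Hochberg adjusted over 15412 genes, called 0 of them, where it called 0.0714% of all tested genes. At an unadjusted p under 0.05, 0 members were higher in the tumours labelled Pak2-null, against 4.39% of all tested genes, and 12 were lower (11.8%), against 8.55%. The groups did not overlap for 10 members, all lower in the tumours labelled Pak2-null, where 8.93% of all tested genes were lower without overlap and 5.07% higher. DESeq2 called 7 members, all lower (6.86%), where it called 7.71% of all genes; Cox6a2, Ndufa4l2, Atp5b, Cox7a1, Cox8b and Ndufa13 were among them. Limma-voom called 0 members and 0.162% of all genes. With sample quality weights it called 4 members (Cox6a2, Ndufa13, Ndufb7 and Ndufs1) and 6.16% of all genes, and 48 members (47.1%) were then lower at an unadjusted p under 0.05, against 14.5% of all genes.

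Most members had lower fitted values in the tumours labelled Pak2-null. The log2 fold change, labelled Pak2-null over wild-type, was below 0 for 74 of 81 nuclear subunits, with a median of -0.35 and a middle range of -0.51 to -0.19. It was below 0 for all 12 mitochondrially encoded genes, with a median of -0.61 and a range of -1.20 to -0.30. Over all 15412 tested genes it was below 0 for 45.5% and above 0 for 54.5%, with a median of 0.06. The mitochondrially encoded median was thus lower than the nuclear one by a difference of -0.26. The middle range and the range above are spreads between genes. Between tumours of a group, the pooled SD of the per-tumour median was 0.34 (nuclear), 0.88 (mitochondrially encoded) and 0.67 (their difference). The members were measured in the same tumours, so a count of genes is not a count of independent observations. These medians rest on which wild-type tumours are in the set. Without tumours 20 and 127, which had the most skeletal muscle transcripts, the nuclear median was 0.10 and the mitochondrially encoded one 1.23, and all 12 mitochondrial genes turned to above 0. Without tumour 20 alone the medians were -0.06 and -0.31, and without tumour 19 they were -0.55 and -1.03.

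The unadjusted counts depended on single tumours too. Without tumours 20 and 127, 7 members were higher and 2 lower at an unadjusted p under 0.05, against 4.29% and 4.26% of all tested genes. Without tumour 19, 27 members were lower (26.5%), against 9.64% of all tested genes, and without tumour 20, 4 were lower (3.92%), against 6.6%. A single member was higher when tumour 59 was left out, against 2.81% of all tested genes, and 1 when 14B was added to the tumours labelled Pak2-null, against 6.4%.

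**Figure D1:**
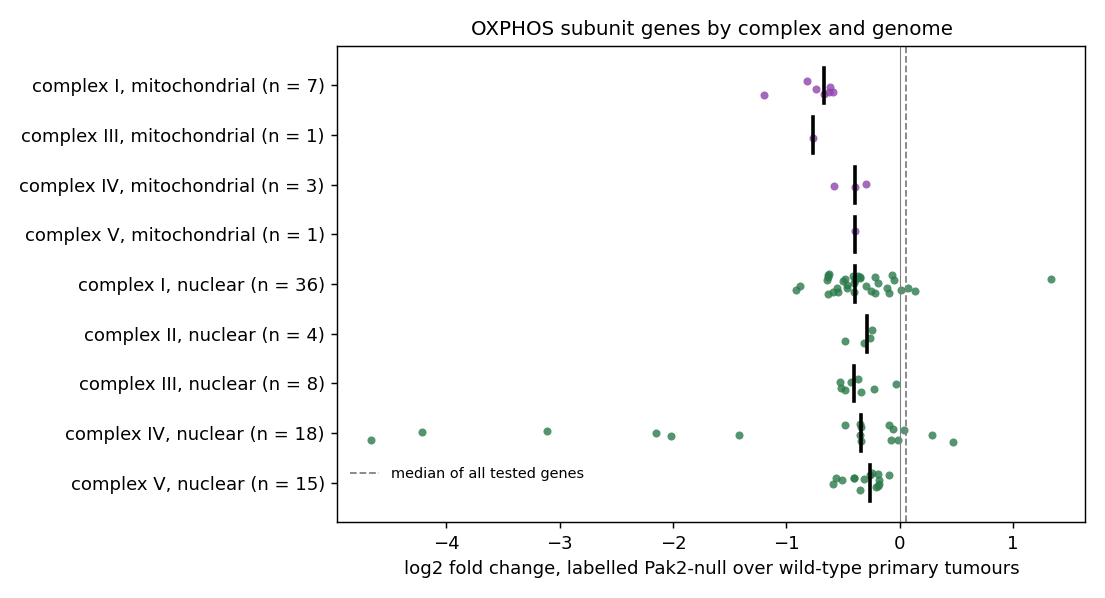
Log2 fold change of each subunit gene, primary tumours labelled Pak2-null over wild-type primary tumours, by complex and by the genome that encodes it. Each dot is a gene, black bars are medians of the row and the dashed line is the median of all tested genes (0.06). The rows' medians lie between -0.76 and -0.26, and the widest row is nuclear complex IV, which runs from -4.66 to 0.47.

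Between tumours, the mitochondrially encoded genes varied more than the nuclear ones. The 12 mitochondrial genes took 1.04%, 1.22%, 1.45% and 1.83% of library counts in tumours 13, 14A, 59 and 61 and 1.12% in 14B, against 0.787%, 2.93% and 2.51% in wild-type tumours 19, 20 and 127. The wild-type tumours held both the lowest and the highest shares, and those labelled Pak2-null lay between them. The 90 nuclear members took 0.600%, 0.757%, 0.669% and 0.904% in tumours 13, 14A, 59 and 61 and 0.561% in 14B, against 0.852%, 1.21% and 0.850% in wild-type tumours 19, 20 and 127. The nuclear shares of the 2 primary groups overlapped only through tumour 61. The shares are of all counts, which in 14B and 14A include many exocrine pancreas transcripts. In CPM, the 81 nuclear subunits summed to 6340, 7820, 6040 and 8520 in tumours 13, 14A, 59 and 61, against 7890, 11700 and 8410 in wild-type tumours 19, 20 and 127. Tumour 14B, at 7730 CPM, was then not the lowest. The SD of log2 CPM over the 8 tumours had a median of 0.80 over the mitochondrial genes and 0.40 over the nuclear subunits, beside 0.60 over all tested genes. Within the mitochondrial genes it was 0.97 over 5 with low levels for their length (mt-Co2, mt-Atp6, mt-Co3, mt-Nd3 and mt-Nd4l). Over the other 7 it was 0.63, close to the value of all tested genes.

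The ratio of mitochondrially encoded to nuclear counts separated 1 wild-type tumour from the rest. It was 1.74, 1.61, 2.17 and 2.02 in tumours 13, 14A, 59 and 61 and 2.00 in 14B, against 0.924, 2.43 and 2.95 in wild-type tumours 19, 20 and 127. Tumour 19 was the only one in which nuclear transcripts outnumbered mitochondrial ones, and tumours 20 and 127 had the highest ratios. The mean was 1.88 ± 0.256 in primary tumours labelled Pak2-null (SD, n = 4) and 2.10 ± 1.05 in wild-type ones (SD, n = 3), a difference smaller than the wild-type SD. Within complexes I and III, tumour 19 was again the lowest and tumours 20 and 127 the highest. For complex I the ratio was 2.12 to 3.19 in the primary tumours labelled Pak2-null, against 1.56, 3.52 and 4.43 in wild-type tumours 19, 20 and 127. For complex III, whose only mitochondrially encoded subunit is cytochrome b, it was 2.41 to 3.44 against 1.13, 4.30 and 5.69. For complex IV it was 4.02 to 5.79 against 2.62, 5.73 and 7.08, with tumour 59 just above tumour 20. These are ratios of RNA counts, not of protein.

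**Figure D2:**
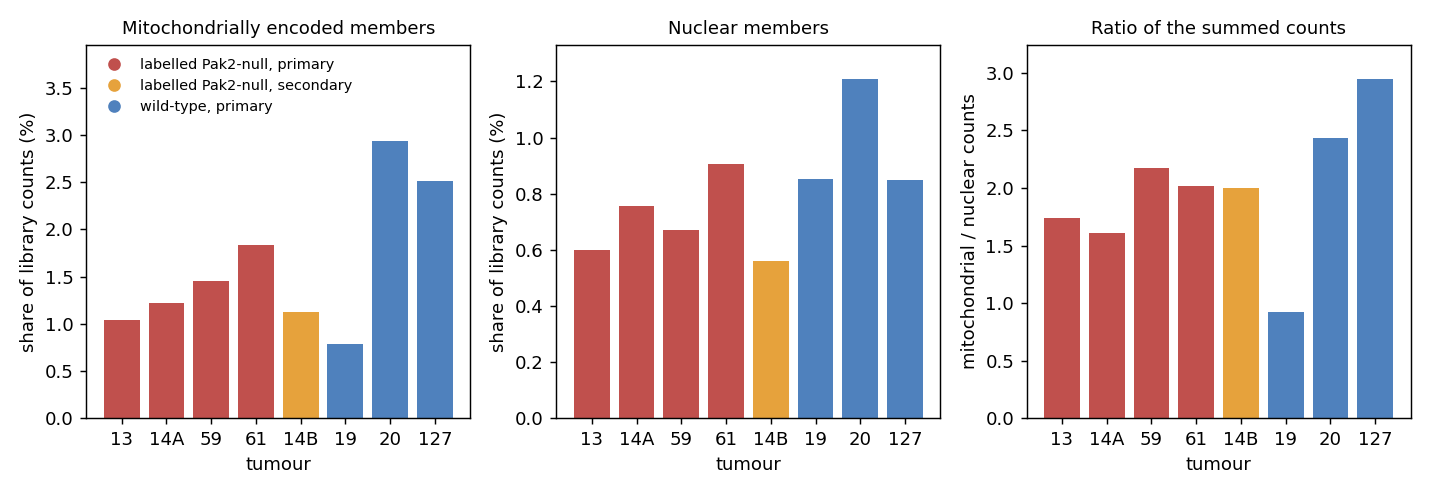
Share of library counts taken by the 12 mitochondrially encoded and the 90 nuclear members in each tumour, in percent, and the ratio of their summed counts. Tumour 19 has the lowest mitochondrial share (0.787%) and ratio (0.924), and tumours 20 and 127 have the highest mitochondrial shares (2.93% and 2.51%).

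Tumour 20 stood out in both genomes. It was the highest of the 8 tumours for 62 of 81 nuclear subunits (76.5%) and 10 of 12 mitochondrial genes, where it was the highest for 9.75% of all tested genes. Tumour 127 was the highest for the other 2 mitochondrial genes, mt-Nd5 and mt-Nd6. Tumour 19 was the lowest for 10 of 12 mitochondrial genes but for only 17 nuclear subunits, while tumours 59 and 13 were the lowest for 32 and 23 nuclear subunits. The summed skeletal muscle markers were highest in the same tumour 20, although single markers such as Ttn were highest in tumour 127, and their part in the subunit levels was not tested.

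Among the mitochondrially encoded genes, mt-Co1, the catalytic subunit of complex IV, was the most abundant, with 41.5% to 53.6% of the mitochondrial counts in every tumour. It had 4993, 6870, 6506 and 8301 CPM in tumours 13, 14A, 59 and 61 and 7953 CPM in 14B, against 3664, 12530 and 10440 CPM in wild-type tumours 19, 20 and 127. As for all 12 genes, the primary groups overlapped. Its log2 fold change was -0.39 ± 0.51 (SE; edgeR, Benjamini-Hochberg adjusted p = 0.786). Cytochrome b, mt-Cytb, had 1718, 1793, 1999 and 2850 CPM in tumours 13, 14A, 59 and 61 and 2424 CPM in 14B, against 826, 5168 and 4743 CPM in wild-type tumours 19, 20 and 127. The range in the wild-type tumours again enclosed that of the tumours labelled Pak2-null, with a log2 fold change of -0.76 ± 0.61 (SE; edgeR, Benjamini-Hochberg adjusted p = 0.646). Of the complex I genes, mt-Nd2, a membrane-arm subunit, had 666, 707, 757 and 874 CPM in tumours 13, 14A, 59 and 61 and 893 CPM in 14B, against 288, 2027 and 1719 CPM in wild-type tumours 19, 20 and 127.

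Tumour 19 was not the lowest for mt-Nd6 and mt-Nd4l, of which mt-Nd4l rests on 215 counts. The subunit mt-Nd6 is the only member encoded on the opposite strand of the mitochondrial genome (MT:13552-14070), where its end overlaps mt-Nd5. It had 256, 214, 281 and 384 CPM in tumours 13, 14A, 59 and 61 and 275 CPM in 14B, against 284, 496 and 547 CPM in wild-type tumours 19, 20 and 127. Tumour 19 lay within the range of the tumours labelled Pak2-null, and mt-Nd6 had the smallest spread of the 12 genes (SD 0.48 on the log2 scale) and the lowest p among them, with a log2 fold change of -0.62 ± 0.33 (SE; edgeR, Benjamini-Hochberg adjusted p = 0.489). The ratio of mt-Nd6 to mt-Cytb was 0.119 to 0.149 in primary tumours labelled Pak2-null and 0.113 in 14B, against 0.344, 0.0959 and 0.115 in wild-type tumours 19, 20 and 127. The ratio of mt-Nd5 to mt-Cytb was 0.564 to 0.653 in primary tumours labelled Pak2-null, against 0.959, 0.468 and 0.598 in wild-type tumours 19, 20 and 127. The strand setting of the counting is not given in the sources used here, so reads of mt-Nd6 and of transcripts that cross it on the other strand cannot be told apart.

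A run of 5 neighbouring mitochondrial genes had low levels for their length in all tumours. Divided by the deposited gene length, the mean level over the 8 tumours was 46.6 CPM per kilobase for mt-Co2, 28.8 for mt-Atp6, 39.8 for mt-Co3, 4.85 for mt-Nd3 and 5.55 for mt-Nd4l. The other 7 genes stood at 659 (mt-Nd6) to 4956 (mt-Co1) on the same scale. In the GENCODE M21 annotation of GRCm38, these 5 genes each have a pseudogene on chromosome 1, between positions 24612407 and 24615565, over nearly their whole length. The same stretch of chromosome 1 also holds copies of parts of 2 genes that were not low per length: 876 of the 1378 bases of mt-Nd4 at 100% identity and 483 of the 1545 bases of mt-Co1 at 99.8%. The chromosome 1 pseudogenes of mt-Co2, mt-Atp6, mt-Co3 and mt-Nd4l match at 100% identity, and that of mt-Nd3 at 99.7%. All matched pseudogenes together held 54.7% of the summed counts of gene and copies for mt-Co2, 67.7% for mt-Atp6, 51.3% for mt-Co3, 78.1% for mt-Nd3 and 55.0% for mt-Nd4l, against 1.19% for mt-Nd4 and 0.355% for mt-Co1. For mt-Co2 they include Gm13341 on chromosome 2, with 160 counts and 95.9% identity, beside 4741 counts of the chromosome 1 copy. For mt-Co2 the share was 53.6% to 56.1% in primary tumours labelled Pak2-null and 57.0% in 14B, against 53.4% to 59.8% in wild-type ones. Reads from these genes and from the copies cannot be told apart, and the part of the copies in the low levels was not tested. The 5 genes made little of the totals: the ratio without them was 1.61 to 2.16 in primary tumours labelled Pak2-null, against 0.921, 2.42 and 2.94 in wild-type tumours 19, 20 and 127.

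**Figure D3:**
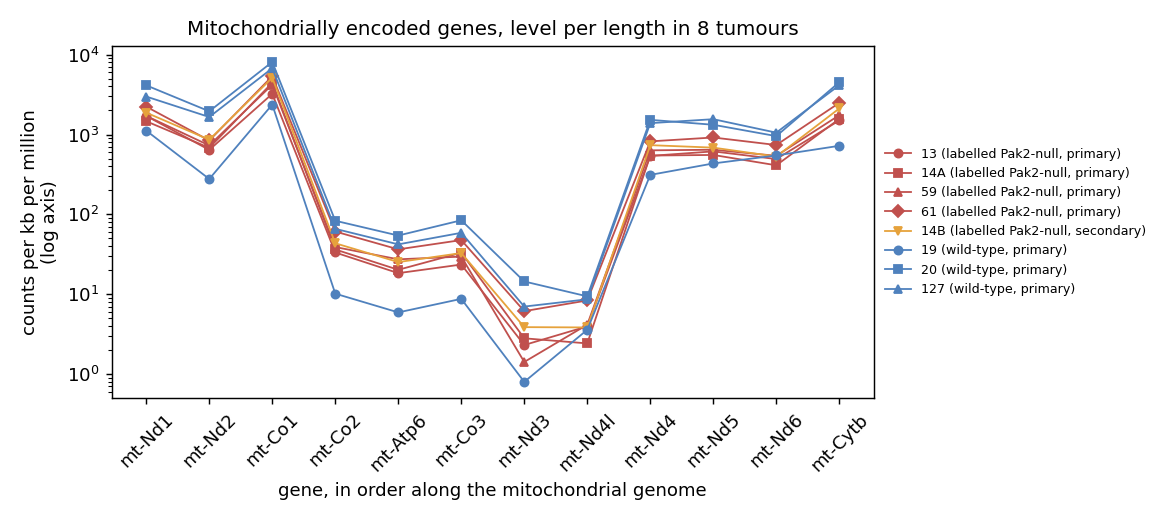
Level of each mitochondrially encoded gene, in CPM per kilobase on a log axis, with genes in their order along the mitochondrial genome and 1 line per tumour. Levels from mt-Co2 to mt-Nd4l lie between 0.799 and 84.3 in all tumours, and the other genes lie between 277 and 8109. The line of tumour 19 is the lowest at most genes and meets those of the tumours labelled Pak2-null at mt-Nd6.

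Complex I had 36 nuclear members, with a median log2 fold change of -0.39. At an unadjusted p under 0.05, 5 of them were lower in the tumours labelled Pak2-null (13.9%) and 0 higher, against 8.55% and 4.39% of all tested genes. The lowest p was that of Ndufa13, an accessory subunit also known as Grim-19. It had 51.0, 61.0, 42.8 and 57.8 CPM in tumours 13, 14A, 59 and 61 and 64.6 CPM in 14B, against 68.2, 123 and 107 CPM in wild-type tumours 19, 20 and 127. The groups did not overlap, and the log2 fold change was -0.88 ± 0.25 (SE; edgeR, Benjamini-Hochberg adjusted p = 0.184). Ndufs1, the largest iron-sulphur subunit, had a log2 fold change of -0.63 ± 0.22 with overlapping groups (SE; edgeR, Benjamini-Hochberg adjusted p = 0.278). Of the core subunits of the peripheral arm, Ndufs3, Ndufs7, Ndufs8, Ndufv1 and Ndufv2 had log2 fold changes of -0.48, -0.35, -0.40, -0.46 and -0.41, and none of these 5 had an unadjusted p under 0.05. The groups overlapped for each of the 5, and tumour 20 was the highest for each.

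The largest positive fold change among all members was that of Ndufs5, an accessory subunit on chromosome 4 (chr4:123712710-123718202, minus strand). It had 20.3, 19.5, 1.79 and 3.64 CPM in tumours 13, 14A, 59 and 61 and 18.7 CPM in 14B, against 4.31, 5.65 and 3.66 CPM in wild-type tumours 19, 20 and 127. Tumours 13, 14A and 14B, all labelled Pak2-null, were high. Tumours 59 and 61, with the same label, were low like the wild-type ones. The log2 fold change was 1.34 ± 0.87 (SE; edgeR, Benjamini-Hochberg adjusted p = 0.568). A processed copy, BC002163 (chr16:42955631-42955949), matches 319 bases of the Ndufs5 transcript with 2 mismatches. The aligned part runs from base 93 to base 411 of the transcript, and the deposited length of the gene is 680 bases, so part of the gene lies outside the match. The stretches around both mismatches are shown because within the aligned part only these bases tell gene and copy apart. The mismatch is in capitals, and positions count from 1 at the 5' end of the Ndufs5 transcript, with the gene's base first (T173C and A197G). They are from the GENCODE M21 transcripts.
Ndufs5, at 173: cgcagaacagccctaTaagaacgccgctcg
BC002163, at 173: cgcagaacagccctaCaagaacgccgctcg
Ndufs5, at 197: cgctcggtgccacgcAtttgaaaaagagtg
BC002163, at 197: cgctcggtgccacgcGtttgaaaaagagtg

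The copy held 46.5%, 44.5%, 93.2% and 89.5% of the summed counts in tumours 13, 14A, 59 and 61 and 47.5% in 14B, against 85.2%, 92.4% and 92.3% in wild-type tumours 19, 20 and 127. Tumours 13, 14A and 14B split their reads about evenly, and the other 5 gave most to the copy. Gene and copy together had 37.8, 35.2, 26.2 and 34.7 CPM in tumours 13, 14A, 59 and 61 and 35.6 CPM in 14B, against 29.2, 73.9 and 47.5 CPM in wild-type tumours 19, 20 and 127. With the copy added, the log2 fold change of Ndufs5 turned to -0.56 ± 0.33 (SE; edgeR, Benjamini-Hochberg adjusted p = 0.527), so the sign of its change is uncertain. In all, 49 annotated pseudogenes matched 31 members, and 15 of the pseudogenes had at least 100 counts. For Ndufa12, an accessory subunit, the copy Gm15920 held at most 1.02% of the summed counts in each tumour labelled Pak2-null, against 13.7%, 0.725% and 22.3% in wild-type tumours 19, 20 and 127.

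**Figure D4:**
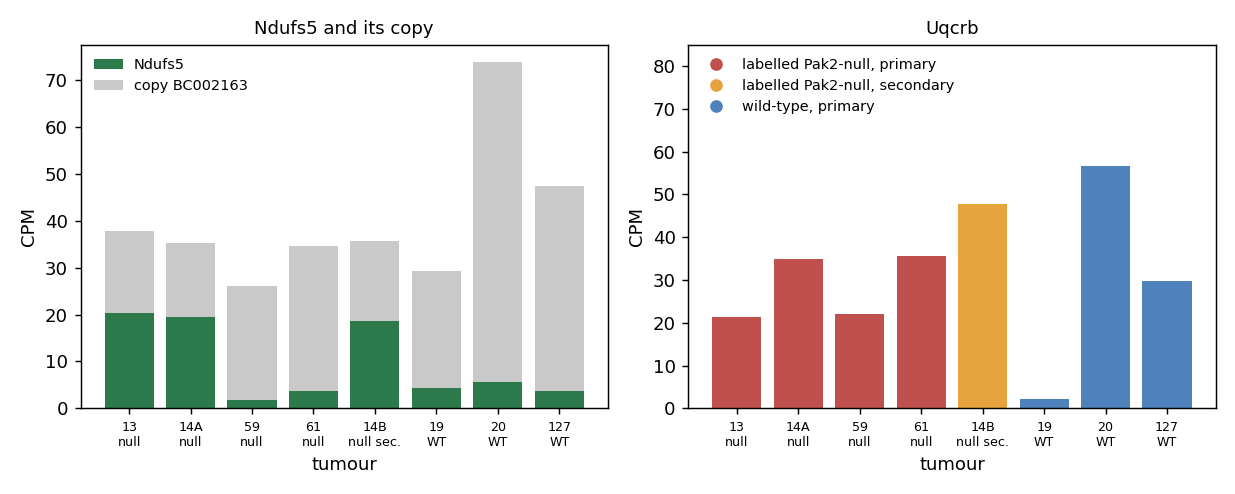
CPM of Ndufs5 with its copy BC002163 stacked on it (left) and of Uqcrb (right) in each tumour. Ndufs5 is at 18.7 to 20.3 CPM in tumours 13, 14A and 14B and at 1.79 to 5.65 CPM in the others, and Uqcrb is at 2.27 CPM in wild-type tumour 19.

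Complex II was the steadiest. The flavoprotein Sdha had 185, 216, 184 and 214 CPM in tumours 13, 14A, 59 and 61 and 207 CPM in 14B, against 269, 258 and 202 CPM in wild-type tumours 19, 20 and 127. The groups overlapped through wild-type tumour 127, and the log2 fold change was -0.26 ± 0.22 (SE; edgeR, Benjamini-Hochberg adjusted p = 0.655). The iron-sulphur subunit Sdhb had a log2 fold change of -0.48 ± 0.24 (SE; edgeR, Benjamini-Hochberg adjusted p = 0.462). The membrane anchors Sdhc and Sdhd had -0.31 and -0.24. The median SD of log2 CPM over the 8 tumours was 0.23 for the 4 genes, beside 0.39 to 0.45 for the nuclear subunits of the other complexes.

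All 8 nuclear members of complex III were highest in tumour 20, with log2 fold changes of -0.53 to -0.03. Cytochrome c1 (Cyc1), a complex III subunit that the name rule does not match, was also highest in tumour 20. Its log2 fold change was -0.60 ± 0.28 with overlapping groups (SE; edgeR, Benjamini-Hochberg adjusted p = 0.429). The core protein Uqcrc2 had 81.8, 135, 84.4 and 129 CPM in tumours 13, 14A, 59 and 61 and 118 CPM in 14B, against 136, 186 and 150.1 CPM in wild-type tumours 19, 20 and 127. The groups did not overlap, though the highest tumour labelled Pak2-null (14A) came close to tumour 19, and the log2 fold change was -0.53 ± 0.26 (SE; edgeR, Benjamini-Hochberg adjusted p = 0.461). The Rieske iron-sulphur protein Uqcrfs1 had -0.48 ± 0.27 and the hinge protein Uqcrh -0.43 ± 0.25, both SE. Uqcrb, a small subunit near the ubiquinone site, had 21.4, 35.0, 22.0 and 35.7 CPM in tumours 13, 14A, 59 and 61 and 47.7 CPM in 14B, against 2.27, 56.7 and 29.7 CPM in wild-type tumours 19, 20 and 127. Tumour 19 was about an order of magnitude below every other tumour, while its other complex III transcripts were not: Uqcrc1, the other core protein, had 229 CPM there, against 244 and 195 CPM in tumours 20 and 127. The 3 pseudogenes that match Uqcrb held 0, 10 and 23 counts over all 8 tumours. Without wild-type tumours 20 and 127, the log2 fold change of Uqcrb was 3.70, against -0.03 ± 0.83 with them (SE; edgeR, Benjamini-Hochberg adjusted p = 0.993).

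Complex IV held the largest differences. Its subunits 6a, 7a and 8 each have an isoform made mainly in heart and skeletal muscle (Cox6a2, Cox7a1 and Cox8b) and another made in most tissues (Cox6a1, Cox7a2 and Cox8a). All 3 muscle isoforms lie on mouse chromosome 7. Cox6a2 (chr7:128205436-128206366, minus strand) had 0.929, 11.3, 3.15 and 6.70 CPM in tumours 13, 14A, 59 and 61 and 11.7 CPM in 14B, against 11.6, 201 and 99.4 CPM in wild-type tumours 19, 20 and 127. Tumours 20 and 127 were far above the rest, and tumour 19 was barely above 14A, with a log2 fold change of -4.21 ± 1.08 (SE; edgeR, Benjamini-Hochberg adjusted p = 0.148). Cox7a1 had 1.12, 1.64, 0.556 and 1.44 CPM in tumours 13, 14A, 59 and 61 and 0.415 CPM in 14B, against 2.23, 25.0 and 4.24 CPM in wild-type tumours 19, 20 and 127. The groups did not overlap, with tumour 20 alone far above the others, and the log2 fold change was -3.11 ± 0.88 (SE; edgeR, Benjamini-Hochberg adjusted p = 0.180). Cox8b had 0.0619, 0.103, 0.185 and 3.41 CPM in tumours 13, 14A, 59 and 61 and 0 in 14B, which allows up to 0.311 CPM at that depth, against 2.04, 49.4 and 20.7 CPM in wild-type tumours 19, 20 and 127. Tumour 61 was above tumour 19, so the groups overlapped, and the log2 fold change was -4.66 ± 1.59 (SE; edgeR, Benjamini-Hochberg adjusted p = 0.266).

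The 3 widely used partners did not share these differences. Cox6a1 had 174, 232, 149 and 210.4 CPM in tumours 13, 14A, 59 and 61 and 218 CPM in 14B, against 142, 159 and 119 CPM in wild-type tumours 19, 20 and 127. The groups overlapped only through tumours 59 and 20, and the log2 fold change was 0.47 ± 0.24 (SE; edgeR, Benjamini-Hochberg adjusted p = 0.475). Cox7a2 had -0.09 ± 0.29 and Cox8a 0.29 ± 0.21, with overlapping groups (SE; edgeR, Benjamini-Hochberg adjusted p = 0.926 and 0.617). Per kilobase of gene length, Cox6a2 was 0.501% to 4.40% of Cox6a2 and Cox6a1 together in primary tumours labelled Pak2-null and 4.83% in 14B, against 7.18%, 54.3% and 44.1% in wild-type tumours 19, 20 and 127. On the same scale Cox7a1 was 2.34% to 4.82% of its pair in primary tumours labelled Pak2-null, against 9.31%, 38.1% and 13.3% in wild-type tumours 19, 20 and 127. Cox8b was 0.0657% to 2.62% of its pair, against 2.38%, 33.4% and 20.2%.

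The muscle isoforms and the summed skeletal muscle markers were both highest in tumours 20 and 127. Among the other tumours their order differed for Cox6a2. It had 11.3 and 11.7 CPM in 14A and 14B, where the markers summed to 45.4 and 25.5 CPM. In tumours 59 and 61 it had 3.15 and 6.70 CPM, with marker sums of 478 and 1010 CPM. Cox8b, in contrast, was higher in tumours 59 and 61 than in 14A and 14B. Of the 22 markers, 21 were tested. All 21 were lower in the tumours labelled Pak2-null at an unadjusted p under 0.05, against 8.55% of all tested genes. None was called by edgeR after Benjamini-Hochberg adjustment (lowest adjusted p 0.109). Of the 22, 1 or 2 were at 0 in each primary tumour labelled Pak2-null and 3 in 14B, against 0 in each wild-type tumour. Titin (Ttn) had 2.11, 13.5, 43.1 and 52.3 CPM in tumours 13, 14A, 59 and 61 and 3.84 CPM in 14B, against 134.5, 2527 and 4122 CPM in wild-type tumours 19, 20 and 127. Without tumours 20 and 127, the log2 fold changes were -1.02 for Cox6a2, -0.84 for Cox7a1 and -1.08 for Cox8b. The 8 heart muscle markers summed to 10.1 to 37.0 CPM in primary tumours labelled Pak2-null, against 49.7, 956 and 2410 CPM in wild-type tumours 19, 20 and 127. Of these, 6 were tested, and 4 were lower and 1 higher at an unadjusted p under 0.05, against 8.55% and 4.39% of all tested genes. The higher one was Nppb, at 10.2, 0.308, 13.8 and 6.18 CPM in tumours 13, 14A, 59 and 61, against 0.464, 0.186 and 0 CPM in wild-type tumours 19, 20 and 127. Its log2 fold change was 5.07 ± 1.51 with overlapping groups (SE; edgeR, Benjamini-Hochberg adjusted p = 0.195). Tnni3 had 1.02 ± 0.71 (SE). The 8 brown adipocyte markers, of a cell type that also uses Cox7a1 and Cox8b, summed to 3.91 to 59.0 CPM in primary tumours labelled Pak2-null, against 24.6, 76.6 and 240 CPM in wild-type tumours 19, 20 and 127, and the defining Ucp1 was at 0 to 0.248 CPM in every tumour. A single gene, Dio2, made most of the highest sum, with 228 of the 240 CPM in tumour 127, whereas Cidea and Elovl3 were highest in tumour 61, at 28.5 and 6.07 CPM. Of the 5 tested, 1 (Prdm16) was lower and 0 higher at an unadjusted p under 0.05, against 8.55% and 4.39% of all tested genes. Prdm16 had 0.991, 1.70, 2.72 and 1.73 CPM in tumours 13, 14A, 59 and 61, against 14.8, 7.39 and 7.44 CPM in wild-type tumours 19, 20 and 127. Its groups did not overlap, with a log2 fold change of -2.45 ± 0.49 (SE; edgeR, Benjamini-Hochberg adjusted p = 0.116). The part of muscle tissue in the isoform levels was not tested.

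**Figure D5:**
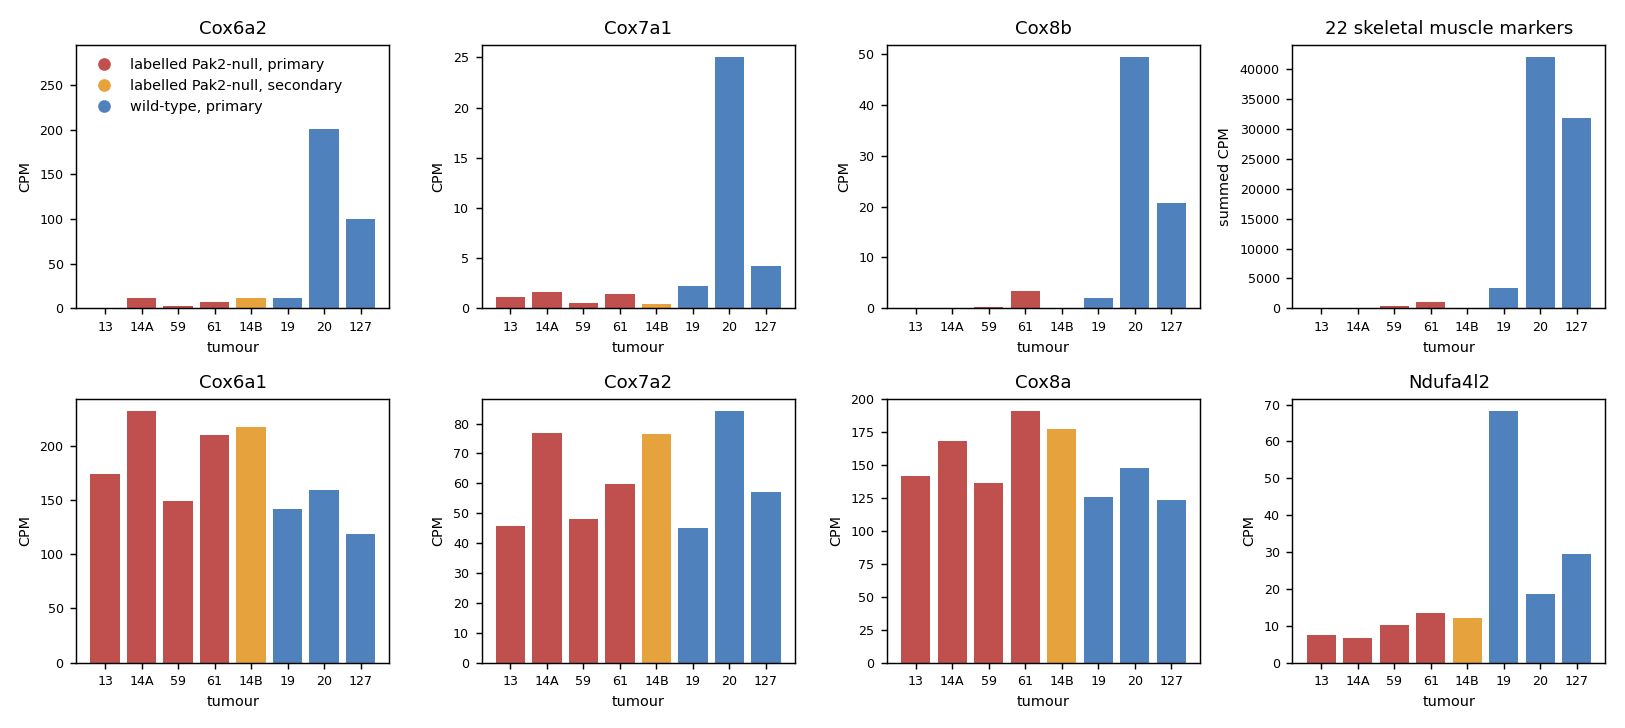
CPM in each tumour of the muscle isoforms Cox6a2, Cox7a1 and Cox8b (top), their widely used partners Cox6a1, Cox7a2 and Cox8a (bottom), Ndufa4l2, and the summed CPM of 22 skeletal muscle markers. The muscle isoforms and the summed markers are highest in wild-type tumours 20 and 127, the partners lie between 44.9 and 232 CPM in all tumours, and Ndufa4l2 is highest in tumour 19 (68.2 CPM).

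The promoters of these isoform genes are shown because the pairs differ in tissue use while encoding the same position in the enzyme. Of the 90 nuclear members, 72 were matched by symbol in the RefSeq promoter windows on GRCm38.p6, Cox7a1, Cox8b and the 3 partners among them. The 250 bases before each start were searched on both strands for GCGCATGCG, bound by nuclear respiratory factor 1, for CCGGAAG, bound by GABP, for the E-box CAGCTG, for the TATA box TATAAA, for TCAAGGTCA, bound by ERR receptors, and for the MEF2 motif. Capitals mark each match. In these 5 windows no motif overlapped a different motif, while the nuclear respiratory factor 1 matches on the 2 strands of Cox6a1 overlapped each other in 1 run of capitals. Cox7a1 lies at chr7:30183921-30184170, plus strand, Cox8b at chr7:140900447-140900696, minus strand, Cox6a1 at chr5:115348959-115349208, minus strand, Cox7a2 at chr9:79759854-79760103, minus strand and Cox8a at chr19:7217617-7217866, minus strand.
Cox7a1: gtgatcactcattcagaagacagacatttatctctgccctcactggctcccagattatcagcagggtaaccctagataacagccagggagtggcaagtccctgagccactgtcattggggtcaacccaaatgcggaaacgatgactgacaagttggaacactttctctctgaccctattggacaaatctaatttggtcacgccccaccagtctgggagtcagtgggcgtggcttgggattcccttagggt
Cox8b: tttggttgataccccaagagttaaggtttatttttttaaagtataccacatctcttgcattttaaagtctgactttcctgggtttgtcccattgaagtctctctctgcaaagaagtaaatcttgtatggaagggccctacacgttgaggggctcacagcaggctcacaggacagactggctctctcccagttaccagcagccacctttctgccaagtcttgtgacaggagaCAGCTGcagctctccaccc
Cox6a1: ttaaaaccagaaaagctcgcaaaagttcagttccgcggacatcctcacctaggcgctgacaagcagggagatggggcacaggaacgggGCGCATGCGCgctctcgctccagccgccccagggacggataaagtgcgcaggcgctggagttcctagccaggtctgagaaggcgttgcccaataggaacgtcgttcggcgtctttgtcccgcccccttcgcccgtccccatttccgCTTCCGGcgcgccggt
Cox7a2: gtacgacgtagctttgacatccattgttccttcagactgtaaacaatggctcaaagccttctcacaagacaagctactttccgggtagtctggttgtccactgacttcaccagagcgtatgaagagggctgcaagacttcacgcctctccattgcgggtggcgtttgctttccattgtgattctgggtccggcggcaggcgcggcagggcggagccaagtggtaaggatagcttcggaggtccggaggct
Cox8a: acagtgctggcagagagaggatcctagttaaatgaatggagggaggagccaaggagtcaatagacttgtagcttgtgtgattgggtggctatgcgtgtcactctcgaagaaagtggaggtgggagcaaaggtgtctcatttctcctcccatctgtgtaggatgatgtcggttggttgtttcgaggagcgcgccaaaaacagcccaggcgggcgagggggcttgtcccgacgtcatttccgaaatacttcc

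The Cox8b window held an E-box starting 19 bases before the start, and the Cox6a1 window held a nuclear respiratory factor 1 motif on both strands, starting 162 and 161 bases before it, and a GABP motif 16 bases before it. The Cox7a1, Cox7a2 and Cox8a windows held none of these letters. Over the 72 nuclear members, the nuclear respiratory factor 1 motif was in 7 genes (9.72%; Atp5g2, Atp5k, Atp5l, Cox6a1, Ndufa11, Ndufa8 and Ndufaf4), beside 1.64% of 27025 genes with a window. GABP was in 13 (18.1%) beside 7.83%, the E-box in 6 (8.33%) beside 14.7%, TATA in 5 (6.94%) beside 14.3%, ERR in 1 (1.39%) beside 0.422%, and MEF2 in 0 beside 1.99%. These are matches of letters and no measure of binding. The searched letters of nuclear respiratory factor 1 were shortened after their matches were seen, so the shares are no test of enrichment.

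Other complex IV isoforms followed a different order of tumours. Ndufa4l2, a paralogue of the complex IV subunit Ndufa4 that is known as a hypoxia-inducible gene (chr10:127514939-127517152, plus strand), had the lowest p of all members. It had 7.37, 6.73, 10.3 and 13.4 CPM in tumours 13, 14A, 59 and 61 and 12.2 CPM in 14B, against 68.2, 18.7 and 29.5 CPM in wild-type tumours 19, 20 and 127. The groups did not overlap, and here tumour 19, whose skeletal muscle sum was the lowest of the 3 wild-type tumours, was the highest. The log2 fold change was -2.02 ± 0.48 (SE; edgeR, Benjamini-Hochberg adjusted p = 0.131), and without tumours 20 and 127 it was -2.80. Ndufa4 itself had -0.48 ± 0.33 (SE; edgeR, Benjamini-Hochberg adjusted p = 0.592), with tumour 20 the highest. Cox4i2, the isoform of subunit 4 found mainly in lung, had 0.434, 0.874, 3.21 and 0.635 CPM in tumours 13, 14A, 59 and 61 and 0.933 CPM in 14B, against 6.72, 1.12 and 2.70 CPM in wild-type tumours 19, 20 and 127. The groups overlapped, with a log2 fold change of -1.42 ± 0.88 (SE; edgeR, Benjamini-Hochberg adjusted p = 0.554). Cox6b2, known as the testis isoform of subunit 6b, had 0.0619, 0.668, 1.30 and 0.635 CPM in tumours 13, 14A, 59 and 61 and 0.622 CPM in 14B, against 3.94, 1.92 and 3.21 CPM in wild-type tumours 19, 20 and 127. It did not overlap between the primary groups, with a log2 fold change of -2.15 ± 0.81 (SE; edgeR, Benjamini-Hochberg adjusted p = 0.320). Their partners Cox4i1 and Cox6b1 had -0.34 ± 0.25 and 0.04 ± 0.30, both SE with overlapping groups. Cox7a2l, which takes part in joining complexes III and IV, had -0.01 ± 0.29, and Cox7b -0.08 ± 0.39 (SE).

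All 15 nuclear subunit genes of the ATP synthase whose names begin with Atp5 had fold changes below 0, with a median of -0.26. The catalytic beta subunit Atp5b had 758, 739, 683 and 867 CPM in tumours 13, 14A, 59 and 61 and 723 CPM in 14B, against 1145, 1232 and 1046 CPM in wild-type tumours 19, 20 and 127. Every wild-type primary tumour was above every one labelled Pak2-null, with a log2 fold change of -0.56 ± 0.25 (SE; edgeR, Benjamini-Hochberg adjusted p = 0.412). The alpha subunit Atp5a1, its partner in the catalytic head, averaged 594 ± 89.9 CPM in primary tumours labelled Pak2-null (SD, n = 4) and 797 ± 65.6 CPM in wild-type ones (SD, n = 3), also without overlap, at a log2 fold change of -0.40 ± 0.25 (SE; edgeR, Benjamini-Hochberg adjusted p = 0.559). The gamma subunit Atp5c1, the rotating shaft, had -0.26 ± 0.30 with overlapping groups (SE; edgeR, Benjamini-Hochberg adjusted p = 0.762). The stalk subunit Atp5o had the lowest p of the complex (-0.59 ± 0.23, SE; edgeR, Benjamini-Hochberg adjusted p = 0.338), with overlap. Atp5g1, Atp5g2 and Atp5g3 encode the same mature ring protein, with log2 fold changes of -0.21, -0.09 and -0.18. Per kilobase, Atp5g2 made 42.5% to 50.6% of the 3 in primary tumours labelled Pak2-null and 41.1% in 14B, against 57.8%, 38.8% and 43.2% in wild-type tumours 19, 20 and 127. Atp5g1 made 4.12% to 6.23% in all 8 tumours.

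The 9 members that are no subunits had a median log2 fold change of -0.26. Ndufaf7, a methyltransferase that acts during complex I assembly, had 17.7, 13.6, 13.9 and 18.0 CPM in tumours 13, 14A, 59 and 61 and 14.7 CPM in 14B, against 24.4, 26.0 and 21.3 CPM in wild-type tumours 19, 20 and 127. The groups did not overlap, at -0.58 ± 0.23 (SE; edgeR, Benjamini-Hochberg adjusted p = 0.360). Ndufaf2, an assembly factor with among the highest fold changes, had 0.39 ± 0.37 (SE; edgeR, Benjamini-Hochberg adjusted p = 0.696).

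The secondary tumour 14B was close to primary tumour 14A in these genes. With 1 tumour each there is no test. No member was more than 2-fold higher in 14B than in 14A, against 8.89% of all tested genes, and 1 was more than 2-fold lower, against 7.09%. That gene was Cox7a1, at 0.415 CPM in 14B and 1.64 CPM in 14A. The median difference of log2 CPM, 14B minus 14A, was 0.35 over the mitochondrially encoded genes and -0.00 over the nuclear subunits, beside 0.01 over all tested genes. Ndufa4l2 had the highest difference, 12.2 CPM in 14B and 6.73 CPM in 14A, or 0.85 on the log2 scale. At 1.5-fold, 3 members were higher in 14B and 3 lower, against 15.8% and 12.4% of all tested genes.

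Genes of related pathways gave 0 calls by edgeR at a Benjamini-Hochberg adjusted p under 0.05, and their unadjusted counts are given beside the 8.55% of all tested genes that were lower. Of 32 tested assembly factors outside the Ndufaf family, 3 were lower and 0 higher in the tumours labelled Pak2-null at an unadjusted p under 0.05. The lowest p was that of Uqcc1, a complex III assembly factor, at 19.4, 25.5, 20.6 and 22.2 CPM in tumours 13, 14A, 59 and 61, against 29.8, 47.6 and 75.3 CPM in wild-type tumours 19, 20 and 127. Of 19 enzymes of the tricarboxylic acid cycle and its entry, 6 were lower and 0 higher, with a median log2 fold change of -0.48. Among 76 mitochondrial ribosomal proteins 2 were lower. Among 15 genes of mitochondrial DNA maintenance and transcription and 15 genes of electron carriers, Cyc1 among them, 0 were lower. In each of these 3 lists 0 were higher. The median log2 fold change was -0.08 for the assembly factors and -0.09 for the mitochondrial ribosomal proteins. It was -0.16 for the genes of mitochondrial DNA maintenance and transcription and -0.19 for the electron carriers.

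Of 13 regulators of mitochondrial biogenesis, 3 were lower and 0 higher at an unadjusted p under 0.05. They were the orphan receptors Esrrb and Esrrg and the coactivator Ppargc1a, which acts with such receptors on respiratory genes and is itself abundant in muscle. Ppargc1a had 0, 0.257, 0.309 and 0.173 CPM in tumours 13, 14A, 59 and 61 and 1.56 CPM in 14B, against 1.02, 3.41 and 2.05 CPM in wild-type tumours 19, 20 and 127. It was low everywhere and highest in tumour 20, at -3.47 ± 0.91 (SE; edgeR, Benjamini-Hochberg adjusted p = 0.154). Over the 13 regulators the median log2 fold change was -0.15. Their summed CPM was 465, 429, 387 and 397 in tumours 13, 14A, 59 and 61. In wild-type tumours 19, 20 and 127 it was 390, 377 and 379. Of 15 hypoxia response genes, 3 were lower and 0 higher, with a median log2 fold change of -0.38. Bnip3, a mitochondrial outer-membrane protein of mitophagy, had 62.3, 42.7, 38.8 and 37.4 CPM in tumours 13, 14A, 59 and 61, against 84.8, 105 and 98.3 CPM in wild-type tumours 19, 20 and 127. Its groups did not overlap, with a log2 fold change of -1.06 ± 0.24 (SE; edgeR, Benjamini-Hochberg adjusted p = 0.123).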

How the data were processed

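RNA of 8 mouse tumours was sequenced after mRNA enrichment, per the labels' protocols. The authors deposited 1 table of unnormalised read counts per gene for all 8 tumours, with gene names, positions and a gene length in bases. The aligner STAR, the counter HTSeq and the builds GRCm38 and mm10 are named, per the submitters' processing notes. Their versions, the strand setting, any filter and how the gene length was made: not given in the sources used here.

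The counts went into edgeR 4.0.16 under R 4.3.3 (TMM, filterByExpr with a minimum count of 10 and total of 15, quasi-likelihood F-test, Benjamini-Hochberg over 15412 of 35275 genes, threshold 0.05). The fit compared 4 primary tumours labelled Pak2-null (13, 14A, 59, 61) with 3 wild-type ones (19, 20, 127); tumour 14B was left out and described only. The SE comes from the log2 fold change and the F statistic. Log2 CPM used a prior count of 2. Levels per length divide CPM by the deposited length. A count of 0 was taken to allow 3 counts, or 0.139 to 0.311 CPM; this limit reflects counting error alone, and PCR duplicates count as reads. Alternatives used DESeq2 1.42.0, limma 3.58.1, other scalings and other tumour sets. Near-identical copies were GENCODE M21 pseudogenes matching a member's transcript (BLAST 2.17.0, identity of 95% or more, covering 80% or more of the copy). The script was tested on simulated data.

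The members and the gene lists were chosen with earlier results of these data known. Named were all mitochondrially encoded genes, the Sdh genes, the isoform families, the catalytic core, and the members with the lowest p of each complex, the highest and lowest fold changes and the highest spread. Of the pathway lists, up to 3 genes with the lowest p each could be named. Ndufaf7, Ttn, Ndufa12, Dio2, Cidea, Elovl3, Prdm16, Nppb and Tnni3 were chosen after their values were seen. The searched nuclear respiratory factor 1 motif was shortened by 1 letter after its matches were seen. The ratio without the 5 copied mitochondrial genes was also added after seeing the data. Mitochondrial rRNA and tRNA genes were not analysed here. Some items named by these rules are not reported here.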

Additional observations from a re-analysis of the deposited data

How the results depend on the processing

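The count of 0 members past the threshold was the same under 4 other scalings, no filter, limma-voom, copies added to their parents, 14B added, and without each tumour in turn (0 to 0). DESeq2 called 7 and limma-voom with quality weights 4, and with these weights 48 members were lower at an unadjusted p under 0.05. Adding 14B gave 1 higher. Without tumours 20 and 127, 7 were higher and 2 lower, with medians of 0.10 (nuclear), 1.23 (mitochondrial) and 1.13 (their difference). Leaving out 1 tumour at a time, 0 to 1 members were higher and 4 to 27 lower; the fewest lower came without tumour 20 and the most without tumour 19. For 14B against 14A, a 1.5-fold limit gave 3 higher and 3 lower. Only 1 wild-type tumour remains without tumours 20 and 127, and it is assumed to vary like the others; the causes were not tested.

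Some log2 fold changes changed sign. Without tumours 20 and 127 they were 0.72 for mt-Nd1, 1.44 for mt-Nd2, 2.01 for mt-Nd3, 1.08 for mt-Nd4, 0.44 for mt-Nd4l, 0.71 for mt-Nd5, 0.05 for mt-Nd6, 1.39 for mt-Cytb, 0.92 for mt-Co1, 2.11 for mt-Co2, 1.99 for mt-Co3 and 2.16 for mt-Atp6. Nuclear genes that turned with them were Ndufs3 (0.13), Ndufs7 (0.51), Sdhd (0.01), Uqcrb (3.70), Uqcrfs1 (0.08), Cox7a2 (0.41), Cox7b (0.68), Ndufa4 (0.10), Atp5c1 (0.07), Atp5g1 (0.60), Atp5g2 (0.08) and Atp5g3 (0.76). Limma-voom gave 0.21 for mt-Co2, 0.21 for mt-Atp6 and 1.05 for Uqcrb, and with quality weights -0.34 for Ndufa3, -0.45 for Ndufs5 and -0.33 for Cox6b1. Adding 14B gave 0.13 for Uqcrb, 0.03 for Cox7a2l and 0.09 for Cox7b, and adding copies gave -0.56 for Ndufs5. Leaving out 1 tumour at a time, the ranges that crossed 0 were -0.59 to 0.86 (Uqcrb), -0.29 to 0.19 (Cox7a2), -0.20 to 0.15 (Cox7a2l), -0.35 to 0.36 (Cox7b), -0.16 to 0.29 (Cox6b1), -0.13 to 0.52 (Ndufa3), -0.81 to 0.17 (mt-Co2), -1.09 to 0.01 (mt-Co3), -0.91 to 0.11 (mt-Atp6), -0.65 to 0.02 (Ndufs7), -0.40 to 0.03 (Atp5c1), -0.49 to 0.26 (Atp5g1) and -0.50 to 0.14 (Atp5g3).

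No paired analysis was possible because the groups share no replicate numbers. The groups held 4 and 3 tumours, the wild-type tumours differed widely in muscle transcripts, and the depth was 13469851 counts or more. What limited the precision was not tested. The members mt-Nd3, mt-Nd4l, Cox6b2, Cox4i2 and the muscle isoforms rest on few counts in several tumours.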
